A study of Ovis aries with 12 samples.

Results

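Expression of 10 genes of antioxidant defence was followed in 12 corpora lutea of sheep. The genes encode the peroxiredoxins PRDX1, PRDX2, PRDX3 and PRDX6, the heme oxygenases HMOX1 and HMOX2, the metallothionein MT2A, the superoxide dismutases SOD1 and SOD2, and catalase, CAT. They were chosen by name, with earlier results of these data known. Every probe set that the array's annotation assigns to 1 of these symbols alone was used. That gave 14 probe sets of the 24016 that were tested, with 4 for PRDX6, 2 for PRDX3 and 1 for each of the other genes. Where a gene had several probe sets, the one with the highest mean over the 12 arrays leads, and the others are given beside it.

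The corpus luteum forms from the ovulated follicle and secretes progesterone. The 4 groups were day 14 pregnant, day 14 non-pregnant, day 12 pregnant and day 12 non-pregnant ewes, with 3 ewes and 1 array per ewe in each. Per the labels' protocols, a fertile ram sired the pregnancies, and a vasectomized ram was used to time the cycle of unmated ewes. Groups follow the source label of each sample, since all titles read day 12 pregnant and so conflict with that label for 9 of the 12. No genetic change or drug is named for any group, and neither breed nor age is given in the labels. The arrays carry bovine probe sets, so sheep RNA was read with probes of another species, and levels of different probe sets were not compared as amounts of RNA. Values are log2, as deposited by the authors, so a difference of 1 is a doubling, and differences are fitted values ± standard error (SE).

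Steroid synthesis in mitochondria leaks electrons to oxygen, and the superoxide that results is converted by superoxide dismutases to hydrogen peroxide. Catalase and the peroxiredoxins remove that peroxide, catalase mostly in peroxisomes and the peroxiredoxins in the cytosol and mitochondria. Heme oxygenases open the ring of heme and release biliverdin, iron and carbon monoxide, and metallothioneins bind zinc and copper through their many cysteines. In the ewe without a conceptus the gland regresses at the end of the cycle, a process called luteolysis, during which reactive oxygen is known to accumulate.

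The tissue label was checked against genes of steroid-making luteal cells. STAR, which carries cholesterol into mitochondria, lay between 12.18 and 13.18 on all 12 arrays, CYP11A1, which makes pregnenolone, between 11.16 and 11.89, and HSD3B1, which makes progesterone, between 11.18 and 12.35. On the first principal component the 3 arrays of day 14 non-pregnant ewes were far from the rest, at 18.1 to 40.4 against -13 to -7 on the other 9. The difference between 3′ and 5′ probe sets of actin and GAPDH, a sign of RNA integrity, was 1.44 to 1.60 in day 14 pregnant and 1.29 to 1.43 in day 14 non-pregnant ewes, so it moved with the day 14 comparison below and its part was not tested. The descriptions call 4 arrays bovine gene arrays and 8 bovine genome arrays, called batch A and batch B here. Whether these were different designs or only separate runs is not stated, so the batch term stands for a difference in name. In batch A were 1 array of day 14 pregnant, 2 of day 14 non-pregnant, 1 of day 12 pregnant and 0 of day 12 non-pregnant ewes. The model had this term throughout unless stated.

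**Figure D1:**
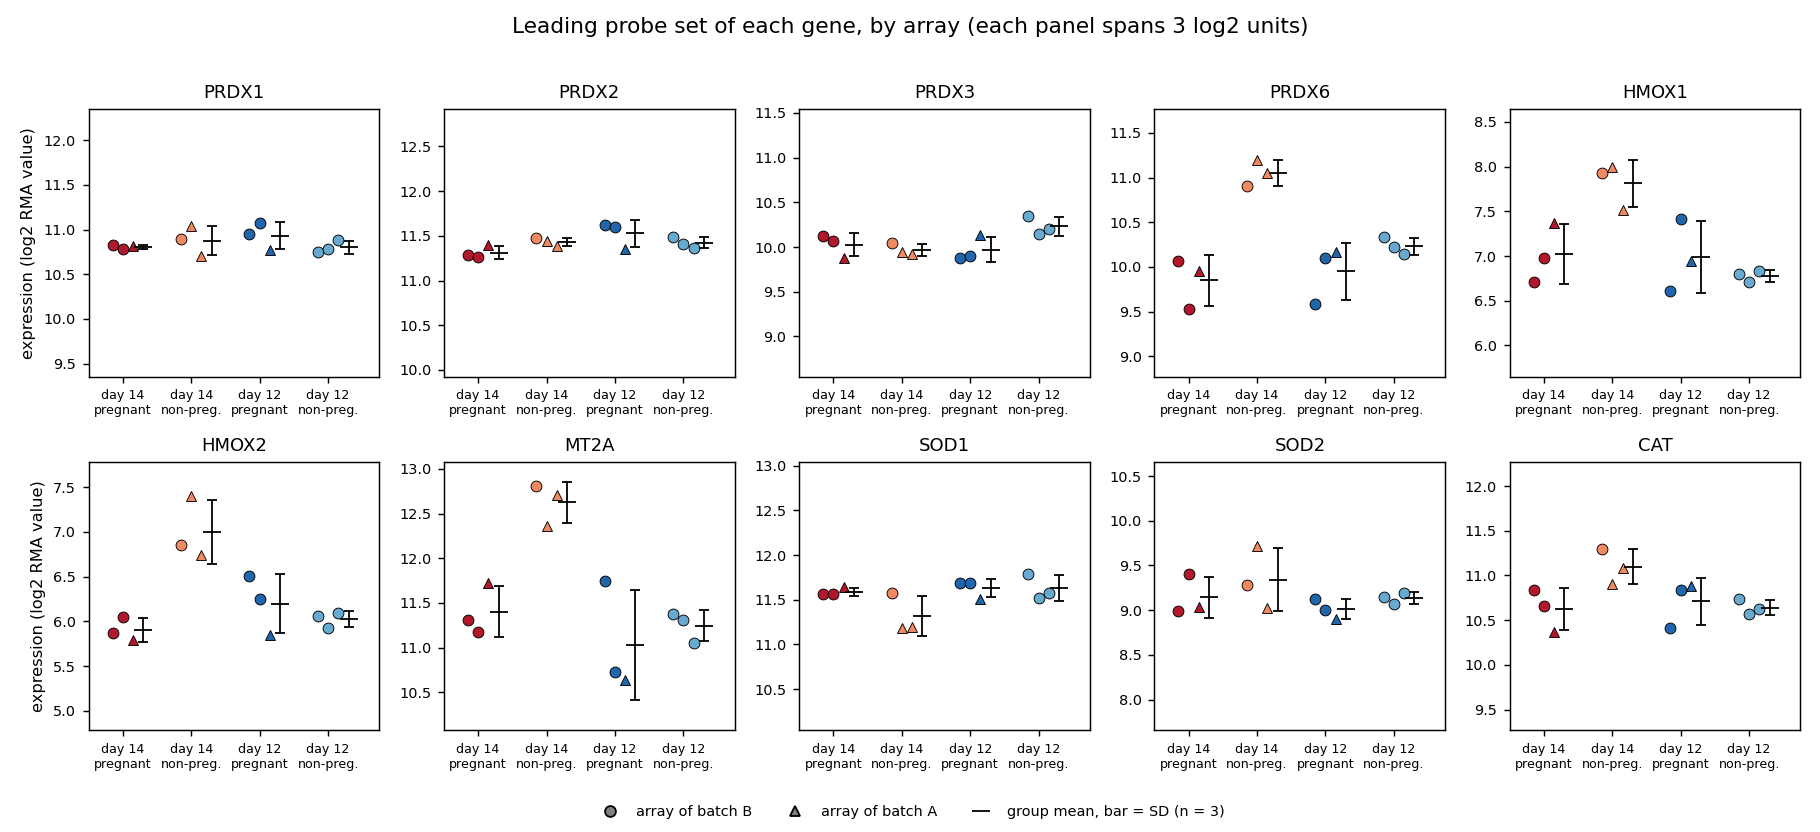
Each panel plots the log2 expression value (y axis) of 1 gene's leading probe set on the 12 arrays, by group (x axis). Points are arrays, triangles batch A and circles batch B, and the bar beside them is the group mean with its SD. PRDX6, HMOX2 and MT2A were higher on all 3 day 14 non-pregnant arrays than on the other 9, as were HMOX1 and CAT by small gaps. PRDX1, PRDX2 and PRDX3 spanned under 0.5 log2 units over all 12 arrays.

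On day 14, 3 of the 10 genes differed with pregnancy, and all 3 were lower in pregnant ewes: PRDX6, HMOX2 and MT2A. They were 2.18-fold, 2.21-fold and 2.40-fold lower, and with another probe set of PRDX6 made up 4 of the 14 probe sets. Among all probe sets 0.912% passed in that direction, and among the leading probe sets of all 9155 named genes 1.2% did. None of the 14 passed as higher in limma, a direction in which 0.537% of all probe sets passed, and 0 had an unadjusted p under 0.05 in that direction (8.64% of all). In the lower direction 8 of the 14 did, against 6.8% of all. Groups did not overlap for 5 of the 10 leading probe sets, each lower in pregnant ewes (PRDX6, HMOX1, HMOX2, MT2A and CAT), against 8.67% of all named genes. The median difference over the 10 genes was -0.371, against 0.026 over all named genes. Since the 10 genes were chosen with earlier results known, these shares and medians describe them and are not a test of the set. The test was limma's moderated test, two-sided, with Benjamini-Hochberg adjustment over all 24016 probe sets and a threshold of 0.05. It rests on the spread between ewes within groups, pooled over all 4 groups and moderated over all probe sets, not on the day 14 ewes alone. With only the day 14 arrays, 0 of the 14 probe sets passed. In whole glands, a lower share of the cells that express a gene and less of its RNA per cell cannot be told apart.

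PRDX6 is the peroxiredoxin that works with a single catalytic cysteine, is reduced through glutathione, and can also cut phospholipids. Its leading probe set had 10.07, 9.53 and 9.96 in day 14 pregnant ewes, against 10.91, 11.20 and 11.05 in day 14 non-pregnant ewes. On day 12 it had 9.58, 10.10 and 10.17 in pregnant ewes and 10.33, 10.22 and 10.14 in non-pregnant ewes. The lowest day 14 non-pregnant value lay above the highest value of any other group, and the other groups overlapped each other except that day 14 pregnant ewes lay below day 12 non-pregnant ones. The day 14 difference was -1.12 ± 0.161 (adjusted p = 0.00724 in limma). Computed in each batch alone, it was -1.17 in A and -1.11 in B.

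The other 3 probe sets of PRDX6 did not all show this. They are told apart here by their mean over the 12 arrays. The probe set at 5.16 had 5.04, 4.95 and 5.10 in day 14 pregnant ewes, against 5.51, 5.60 and 5.71 in day 14 non-pregnant ewes, and passed as well (-0.51 ± 0.108, adjusted p = 0.0428 in limma). The probe set at 5.52 had 5.37, 5.49 and 5.62 in day 14 pregnant ewes, against 5.74, 5.15 and 5.61 in day 14 non-pregnant ewes, with a difference of 0.01 ± 0.177 whose 95% interval of -0.38 to 0.40 did not reach the -1.12 of the leading probe set. The probe set at 3.04, below the bound of 3.59 used as a filter on dim probe sets, stood at -0.34 ± 0.138 (adjusted p = 0.262 in limma). Taking the mean of all 4 probe sets gave -0.49 for the gene (adjusted p = 0.04 in limma).

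**Figure D2:**
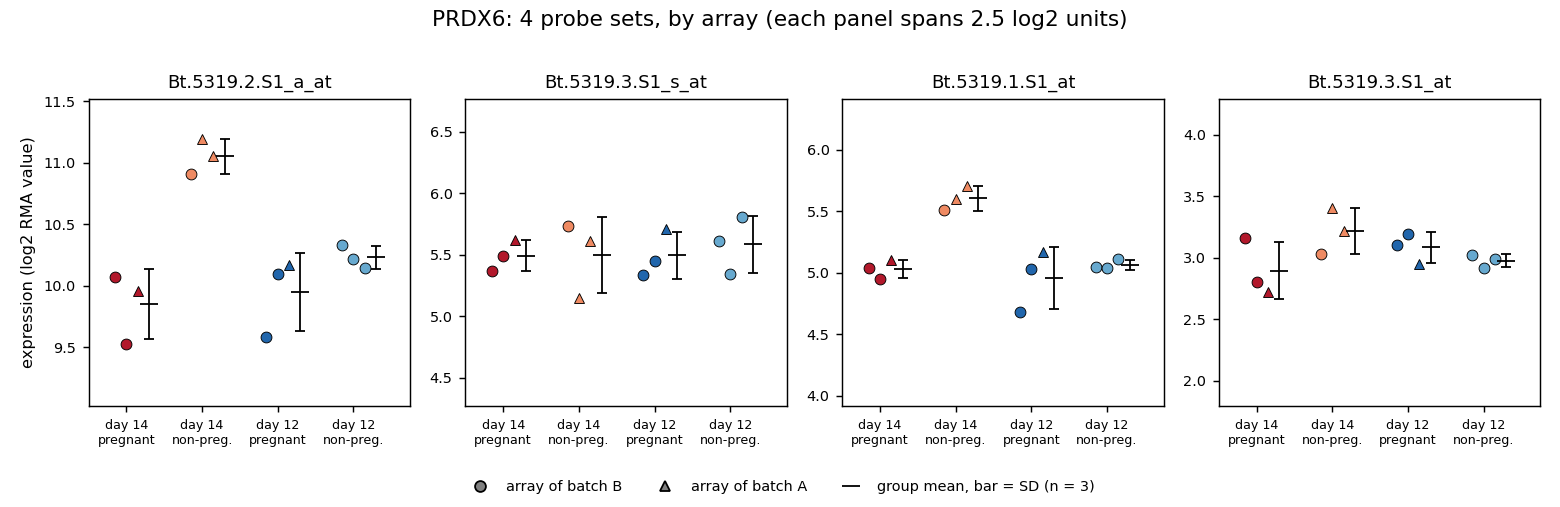
Log2 expression value (y axis) of the 4 PRDX6 probe sets on the 12 arrays, by group (x axis), with points for arrays, triangles for batch A, circles for batch B, and bars for the group mean and SD. Panels run from the highest to the lowest mean, and the probe sets at 10.27 and 5.16 were high on the 3 day 14 non-pregnant arrays, while that at 5.52 was not.

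The other 3 peroxiredoxins use a pair of cysteines and are reduced by thioredoxin. PRDX1, mostly cytosolic, had 10.82, 10.78 and 10.81 in day 14 pregnant ewes, against 10.89, 11.04 and 10.70 in day 14 non-pregnant ewes. The groups overlapped, and the difference was -0.10 ± 0.110, with a 95% interval of -0.34 to 0.14. PRDX2, also cytosolic, had 11.28, 11.26 and 11.39 in day 14 pregnant ewes, against 11.47, 11.44 and 11.39 in day 14 non-pregnant ewes (-0.15 ± 0.0981, interval -0.36 to 0.07). PRDX3, the mitochondrial member, had 10.13, 10.07 and 9.88 in day 14 pregnant ewes, against 10.04, 9.94 and 9.92 in day 14 non-pregnant ewes (0.05 ± 0.111, interval -0.19 to 0.29). None of these 3 intervals reached the -1.12 of the leading PRDX6 probe set. The other PRDX3 probe set, at a mean of 3.58 just below the filter bound, had a difference of -0.28 ± 0.0956 (adjusted p = 0.176 in limma), with 3.60, 3.58 and 3.60 in day 14 pregnant ewes, against 3.89, 3.70 and 3.96 in day 14 non-pregnant ewes.

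HMOX2 is the heme oxygenase that cells make without a stimulus, and HMOX1 the one induced by heme, oxidants and hypoxia. HMOX2 had 5.87, 6.05 and 5.79 in day 14 pregnant ewes, against 6.85, 7.40 and 6.74 in day 14 non-pregnant ewes. On day 12 it had 6.50, 6.25 and 5.84 in pregnant ewes and 6.06, 5.92 and 6.10 in non-pregnant ewes. Here too each day 14 non-pregnant value lay above those of the other 9 arrays. The day 14 difference was -1.15 ± 0.189 (adjusted p = 0.0161 in limma), with -1.28 in batch A and -0.89 in batch B.

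HMOX1 had 6.71, 6.98 and 7.37 in day 14 pregnant ewes, against 7.92, 8.0 and 7.52 in day 14 non-pregnant ewes. On day 12 it had 6.61, 7.41 and 6.95 in pregnant ewes and 6.79, 6.70 and 6.83 in non-pregnant ewes. The 3 day 14 non-pregnant arrays were again the highest of the 12, but the gap to the nearest other array was small, and the difference of -0.76 ± 0.22 did not pass (adjusted p = 0.125 in limma). It was -0.38 in batch A and -1.08 in batch B. HMOX1 is abundant in macrophages, which remove dying luteal cells. The mean level of 9 measured macrophage markers was 6.20 to 6.72 in day 14 pregnant and 6.16 to 7.10 in day 14 non-pregnant ewes. These ranges overlapped, and 0 of the 9 markers passed in limma, against 1.94% of all named genes. An unadjusted p under 0.05 was reached by 4 of the 9, against 18.2% of all named genes. Of these, 1 was higher and 3 were lower in pregnant ewes, against 9.62% and 8.6% of all. The part of macrophages was not tested.

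MT2A had 11.30, 11.18 and 11.72 in day 14 pregnant ewes, against 12.81, 12.36 and 12.71 in day 14 non-pregnant ewes. On day 12 it had 11.74, 10.72 and 10.64 in pregnant ewes and 11.38, 11.31 and 11.05 in non-pregnant ewes. All 3 day 14 non-pregnant values lay above the other 9, and the day 12 pregnant group was the most spread. The day 14 difference was -1.26 ± 0.27 (adjusted p = 0.0451 in limma), with -0.81 in batch A and -1.56 in batch B. This is the least secure of the 3 calls, since it lay just under the threshold and held in 2 of the 12 fits that left out 1 array.

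Metallothionein genes are short and near-identical, so a probe set for one can read RNA of another, and MT2A and MT1A may not be separate measurements. MT1A had 11.75, 12.17 and 12.28 in day 14 pregnant ewes, against 13.13, 13.22 and 12.93 in day 14 non-pregnant ewes. On day 12 it had 12.15, 11.06 and 10.36 in pregnant ewes and 11.60, 11.85 and 11.68 in non-pregnant ewes. The groups of day 14 did not overlap, but the difference of -1.14 ± 0.332 did not pass (adjusted p = 0.127 in limma). Day 12 pregnant replicate 1 was the highest of its group for both genes. MT3 stood at -0.41 ± 0.124 (adjusted p = 0.141) and the zinc exporter SLC30A1, which zinc induces along with metallothioneins, at -0.42 ± 0.177 (adjusted p = 0.279 in limma).

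**Figure D3:**
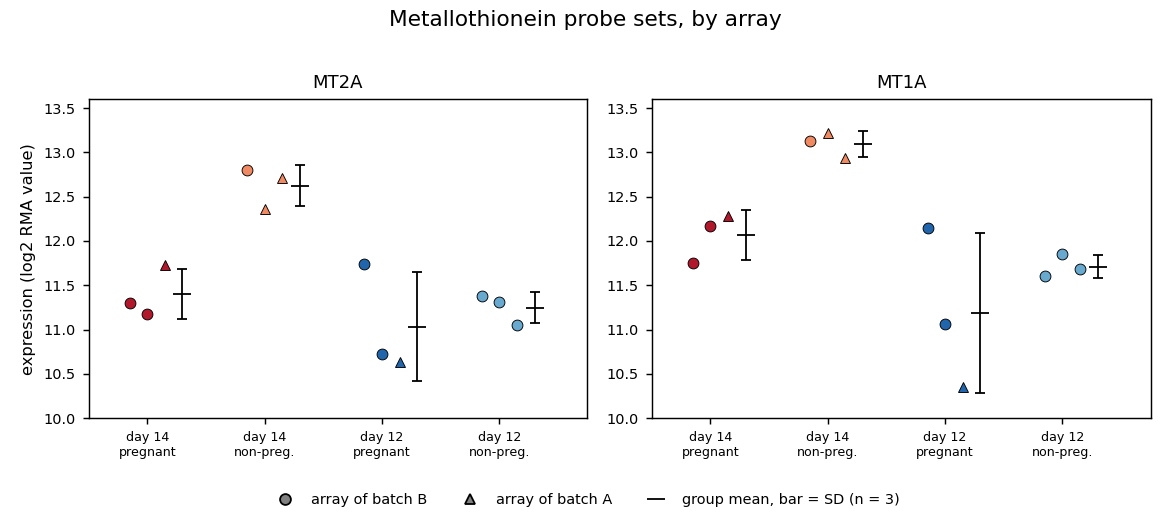
Log2 expression value (y axis) of the MT2A and MT1A probe sets on the 12 arrays, by group (x axis), with points for arrays, triangles for batch A, circles for batch B, and bars for the group mean and SD. Both probe sets were highest on the 3 day 14 non-pregnant arrays and most spread among the 3 day 12 pregnant ones.

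CAT had 10.84, 10.66 and 10.37 in day 14 pregnant ewes, against 11.30, 10.91 and 11.09 in day 14 non-pregnant ewes. All 3 day 14 non-pregnant values also lay above those of day 12, the highest of which was 10.89. The day 14 groups did not overlap, by a gap far smaller than the spread within either group, and the difference of -0.52 ± 0.158 did not pass (adjusted p = 0.138 in limma). It was -0.63 in batch A and -0.54 in batch B.

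SOD1, the copper and zinc enzyme of the cytosol, had 11.56, 11.56 and 11.64 in day 14 pregnant ewes, against 11.57, 11.18 and 11.20 in day 14 non-pregnant ewes. It was the one gene with a leading probe set above 0 by more than its SE on day 14 (0.22 ± 0.114, adjusted p = 0.393 in limma), and did not pass. The pair of low arrays are both of batch A, and the difference was 0.46 in batch A and -0.01 in batch B. SOD2, the manganese enzyme of mitochondria, had 8.99, 9.41 and 9.03 in day 14 pregnant ewes, against 9.28, 9.72 and 9.02 in day 14 non-pregnant ewes (-0.22 ± 0.172, adjusted p = 0.582 in limma). Its groups overlapped on both days.

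**Figure D4:**
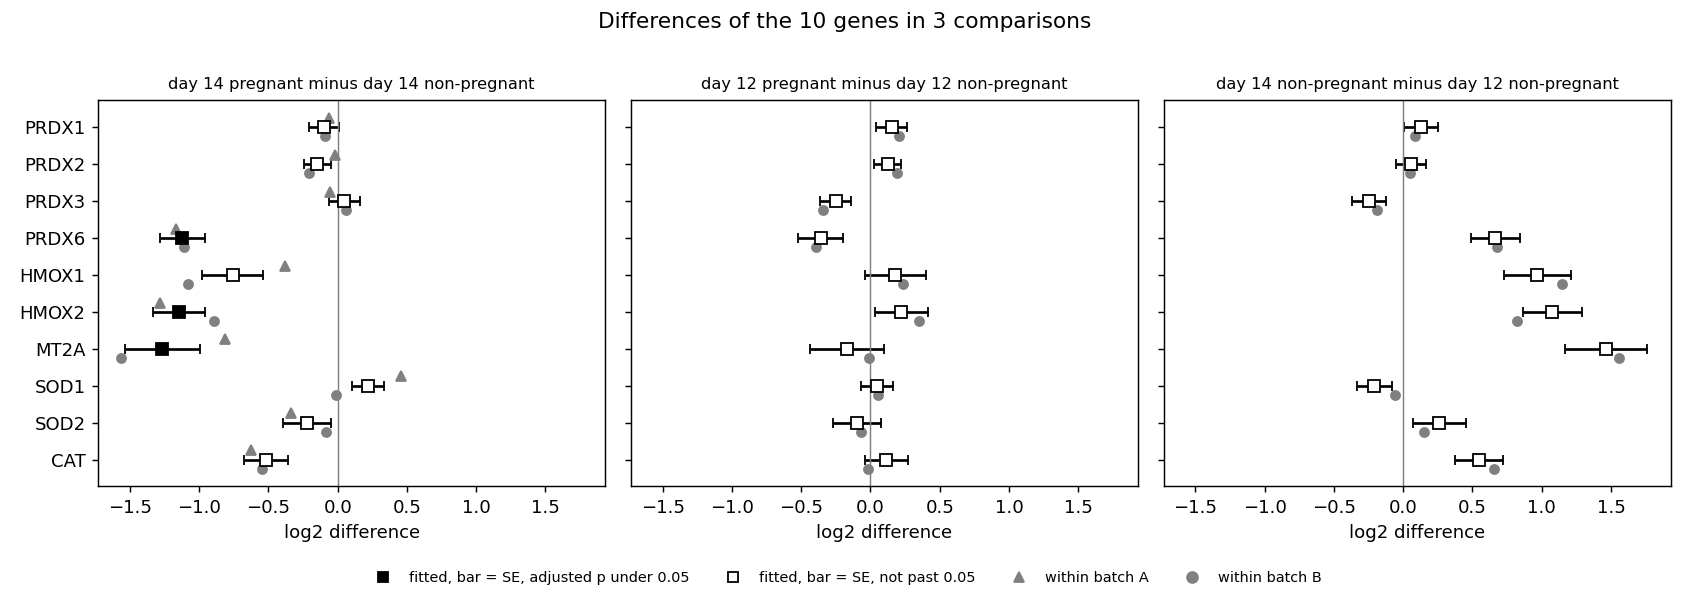
Fitted log2 differences (x axis) of the 10 genes' leading probe sets in 3 comparisons, as squares with SE bars, filled where the adjusted p was under 0.05, with differences within batch A (triangles) and batch B (circles). The filled squares are PRDX6, HMOX2 and MT2A on day 14, and the other panels have no triangles, since no day 12 non-pregnant array was in batch A.

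On day 12 the effect of pregnancy was small. In limma 0 of the 14 probe sets passed, and 2 had an unadjusted p under 0.05 against 0% and 7.69% of all probe sets. The median absolute difference was 0.162 over the 10 genes and 0.109 over all named genes. With its sign kept, the median difference was 0.083 over the 10 genes, against 0.027 over all named genes. The lowest were PRDX6 at -0.36 ± 0.161 (adjusted p = 0.641) and PRDX3 at -0.25 ± 0.111 (adjusted p = 0.635 in limma). PRDX3 had 9.88, 9.90 and 10.13 in day 12 pregnant ewes, against 10.35, 10.15 and 10.20 in day 12 non-pregnant ewes, and was the one gene of the 10 whose leading probe set showed no overlap (7.22% of all named genes were lower in pregnant ewes without overlap). The highest was HMOX2 at 0.22 ± 0.189 (adjusted p = 0.819 in limma).

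Whether the effect of pregnancy differed between the days was tested with an interaction term, day 14 minus day 12. In limma 0 of the 14 probe sets passed (0.0874% of all probe sets did), and 6 of 14, all negative, had an unadjusted p under 0.05, as did 9.42% of all. HMOX2 had the lowest adjusted p (-1.37 ± 0.278, adjusted p = 0.149). Without day 14 non-pregnant replicate 2 it passed at -1.21 (adjusted p = 0.0314 in limma). MT2A stood at -1.10 ± 0.396, HMOX1 at -0.94 ± 0.323, PRDX6 at -0.76 ± 0.237 and CAT at -0.64 ± 0.231. A difference between days was thus not shown for any of the 10 genes with all 12 arrays.

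In non-pregnant ewes, day 14 was set against day 12. These comparisons share the day 14 non-pregnant arrays with those above and are not independent of them. In limma 0 of the 14 probe sets passed, against 0.391% of all probe sets, and 7, all higher on day 14, had an unadjusted p under 0.05 (5.32% of all were higher so). MT2A stood at 1.46 ± 0.299 (adjusted p = 0.0696), HMOX2 at 1.08 ± 0.21 (adjusted p = 0.0594) and HMOX1 at 0.97 ± 0.244 (adjusted p = 0.135). PRDX6 stood at 0.67 ± 0.179 (adjusted p = 0.155) and CAT at 0.55 ± 0.175 (adjusted p = 0.236 in limma). These 5 were also the leading probe sets with no overlap in that direction, which 10.1% of all named genes shared. Batch B alone, where 1 array was of day 14 and 3 were of day 12, gave 1.56 for MT2A, 0.82 for HMOX2, 1.15 for HMOX1, 0.68 for PRDX6 and 0.65 for CAT.

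These calls depended on the batch term and on single arrays. Without the batch term, 5 probe sets passed as higher on day 14: MT2A (1.38, adjusted p = 0.0188), HMOX2 (0.97, adjusted p = 0.0218), HMOX1 (1.03, adjusted p = 0.0278) and PRDX6 with the leading (0.82, adjusted p = 0.0316) and the 5.16 probe set (0.54, adjusted p = 0.0422 in limma). The same 5 passed with batch as a random block. Over all probe sets, calls in this comparison rose from 94 to 415 without the batch term, 231 of them higher on day 14. With a random block they rose to 462, 250 of them higher. With the batch term kept, HMOX2 passed with array weights (1.12, adjusted p = 0.045) and without day 14 non-pregnant replicate 1, 2 or 3 (adjusted p = 0.0473, 0.0153 and 0.0468 in limma). MT2A passed without day 12 pregnant replicate 1, day 14 non-pregnant replicate 2 or day 14 pregnant replicate 3 (adjusted p = 0.0227, 0.0476 and 0.0446 in limma). PRDX3 was the one leading probe set lower on day 14 without overlap, at -0.25 ± 0.123 (adjusted p = 0.478 in limma), against 12.4% of all named genes.

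In pregnant ewes, day 14 against day 12 gave 0 of 14 probe sets in limma, and 0% of all probe sets passed. An unadjusted p under 0.05 was reached by 1 of the 14, PRDX2 (-0.22 ± 0.0942, adjusted p = 0.992), and by 4.43% of all. MT2A stood at 0.37 ± 0.259 and HMOX2 at -0.29 ± 0.182, and the median over the 10 genes was -0.064.

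The genes differed in how much ewes of one group varied. The SD within groups, pooled over the 4 groups, was 0.369 for MT2A, 0.293 for HMOX1, 0.256 for HMOX2 and 0.231 for PRDX6, against a median of 0.151 over all probe sets. It was 0.092 for PRDX2, 0.114 for PRDX3, 0.118 for PRDX1 and 0.143 for SOD1. Within the day 14 non-pregnant group, replicate 2 was highest for PRDX6, HMOX1, HMOX2, SOD2 and PRDX1, and lowest for MT2A, CAT and SOD1, so the genes did not order these 3 ewes alike.

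Across other redox genes, from lists chosen with earlier results known, few passed on day 14. Counts are of leading probe sets, of which 1.94% passed over all named genes and 18.2% had an unadjusted p under 0.05, in either direction. In the thioredoxin system 0 of 12 measured genes passed in limma and 3 had an unadjusted p under 0.05, all lower in pregnant ewes. They were SRXN1, which repairs over-oxidised peroxiredoxins (-0.65 ± 0.184, adjusted p = 0.119), TXNRD3, a thioredoxin reductase (-0.46 ± 0.142, adjusted p = 0.142), and thioredoxin itself, TXN (-0.29 ± 0.0836, adjusted p = 0.123 in limma). In the glutathione system 0 of 21 passed and 4 had an unadjusted p under 0.05, a share near that of all named genes. These were GCLM, a subunit of the enzyme that starts glutathione synthesis, at -0.62 ± 0.171, and the transferases MGST1, MGST3 and GSTM3 at 0.39 ± 0.157, 0.36 ± 0.14 and 0.26 ± 0.112.

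In heme and iron metabolism 0 of 19 passed and 2 had an unadjusted p under 0.05, TFRC, the transferrin receptor (-0.22 ± 0.0914), and NCOA4, which delivers ferritin for breakdown (0.25 ± 0.0888). The TFRC probe set was dim, with group means from 2.58 to 2.78, below the filter bound of 3.59. The enzymes that turn biliverdin into bilirubin, BLVRA and BLVRB, stood at 0.07 ± 0.148 and 0.24 ± 0.155, and the ferritin chains FTH1 and FTL at -0.07 ± 0.0927 and 0.01 ± 0.112. Among other metallothioneins and metal transporters 0 of 10 passed and 6 had an unadjusted p under 0.05, 4 of them lower and 2 higher in pregnant ewes. The lower ones were MT1A, MT3 and SLC30A1, given above, and the copper importer SLC31A1, which came nearest to the threshold (-0.53 ± 0.115, adjusted p = 0.0502 in limma). The higher ones were CCS, which loads copper into SOD1 (0.28 ± 0.0862, adjusted p = 0.137), and SLC39A14, an importer of zinc and other metals (0.51 ± 0.184, adjusted p = 0.202 in limma). The list of NRF2, the main regulator of antioxidant genes, its partners and NADPH-supplying enzymes had 0 of 14 past the threshold and 4 with an unadjusted p under 0.05. These were MAFF, a small MAF protein that pairs with NRF2 (-0.98 ± 0.398), SQSTM1, which sequesters the NRF2 inhibitor KEAP1 (-0.55 ± 0.173), NFE2L1, a relative of NRF2 (0.45 ± 0.122), and TKT, an enzyme of the pentose phosphate pathway (0.32 ± 0.12). Their adjusted p ran from 0.107 to 0.266 in limma. NFE2L2, which encodes NRF2, was at 0.00 ± 0.119, and its target NQO1 at 0.13 ± 0.362.

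Among 14 measured sources of oxidants 1 passed and 4 had an unadjusted p under 0.05. MAOB, a monoamine oxidase of the outer mitochondrial membrane that makes hydrogen peroxide, had 6.86, 6.48 and 6.34 in day 14 pregnant ewes, against 7.70, 7.59 and 7.53 in day 14 non-pregnant ewes (-1.07 ± 0.171, adjusted p = 0.0132 in limma). Subunits of the phagocyte oxidase went both ways without passing, with CYBB at 1.56 ± 0.433 (adjusted p = 0.111) and NCF4 at -0.84 ± 0.194 (adjusted p = 0.0623 in limma). The other antioxidant proteins and the peroxisome genes had 0 of 13 and 0 of 12 past the threshold in limma, with 2 and 1 at an unadjusted p under 0.05. The medians of these 8 lists lay between -0.217 and 0.058.

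**Figure D5:**
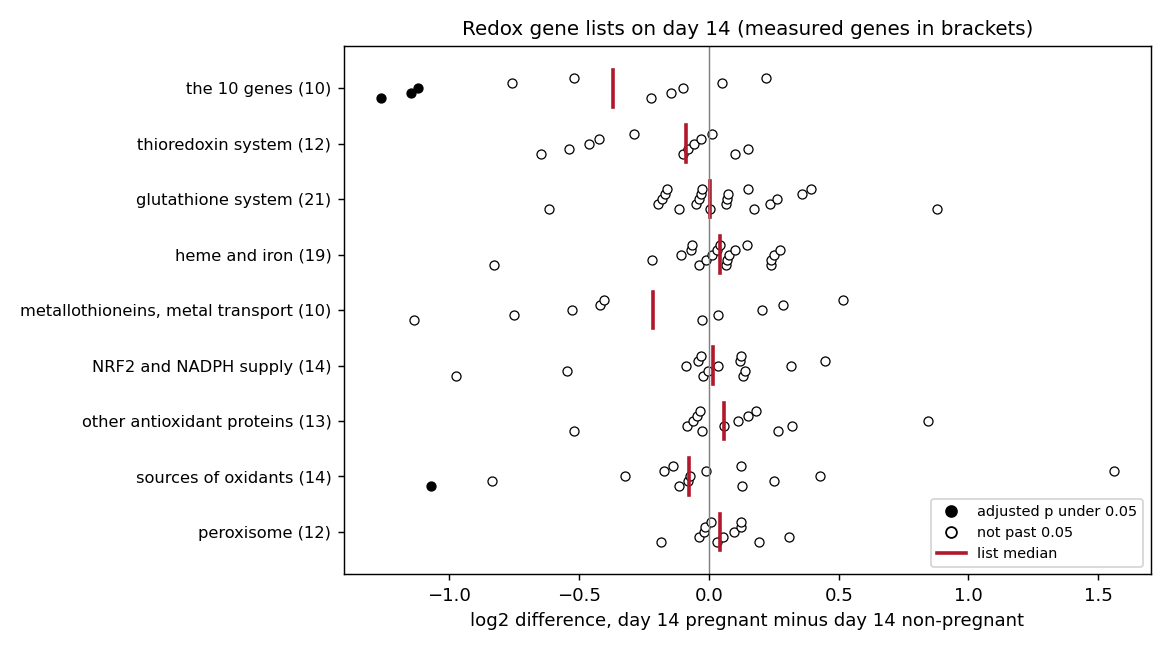
Log2 differences of day 14 pregnant minus day 14 non-pregnant ewes (x axis) for the leading probe set of each measured gene, by list (y axis), filled where the adjusted p was under 0.05, with the list median as a red line. Filled points are PRDX6, HMOX2, MT2A and, among the sources of oxidants, MAOB.

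Genes whose values followed the 3 most closely were looked for among 8954 other named genes, by the mean absolute difference of values centred on each gene's own mean over the 12 arrays. For PRDX6 they were LAPTM4B, a lysosomal membrane protein (0.121), MAOB (0.15) and CHSY1, which builds chondroitin sulfate (0.185), against a median of 0.431 over all. For HMOX2 they were BASP1 (0.133), ATP6V1E1, a subunit of the lysosomal proton pump (0.16), and CAPG, which caps actin filaments (0.162), against a median of 0.414. For MT2A they were MT1A (0.232), the serine protease HTRA4 (0.249) and PTGER4, a receptor for prostaglandin E (0.251), against a median of 0.588. All 9 had a negative day 14 difference, from -0.78 for CHSY1 to -1.15 for CAPG. They were picked for likeness on these same arrays, so the shared sign follows from that choice. Neither it nor the calls that follow are separate support for the 3 genes. LAPTM4B, MAOB, CHSY1, ATP6V1E1 and HTRA4 passed on day 14, with adjusted p = 0.0245, 0.0132, 0.0303, 0.00326 and 0.00634 in limma. BASP1 (adjusted p = 0.108), CAPG (adjusted p = 0.0522), MT1A (adjusted p = 0.127) and PTGER4 (adjusted p = 0.186 in limma) did not. Likeness in the centred values did not mean an equal difference, since PTGER4 stood at -0.83 on day 14 and MT2A at -1.26.

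Markers of other cells were set beside the day 14 result. The mean of 6 luteal markers was 11.2 to 11.4 in day 14 pregnant and 10.4 to 11.1 in day 14 non-pregnant ewes, with 6 of 6 above 0 in their difference and STAR past the threshold (0.74 ± 0.133, adjusted p = 0.0245 in limma). These ranges did not overlap, but day 14 non-pregnant replicate 1 stood at 11.086 and replicates 2 and 3, both of batch A, at 10.397 and 10.475. Above 0 were also 5093 of all 9155 named genes. An unadjusted p under 0.05 in limma was reached by 5 of the 6 luteal markers, all higher in pregnant ewes, against 9.62% of all named genes. Past the adjusted threshold as higher were 0.743% of all named genes. By group means luteal markers thus moved opposite to PRDX6, HMOX2 and MT2A, and their part in the result was not tested. For 8 endothelial markers the means were 7.03 to 7.11 in day 14 pregnant and 6.64 to 7.01 in day 14 non-pregnant ewes, with CD34 (1.09, adjusted p = 0.00828) and TIE1 (0.48, adjusted p = 0.0266 in limma) past the threshold, and their part was not tested either. Of these 8 markers 5 were above and 3 below 0, between -0.404 and 1.09, with a median of 0.19. Means overlapped for neutrophil markers (4.53 to 4.59 in day 14 pregnant and 4.57 to 4.86 in day 14 non-pregnant ewes) and for red blood cell markers (4.78 to 4.99 in day 14 pregnant and 4.66 to 4.96 in day 14 non-pregnant ewes). They also overlapped for T and NK cells (4.87 to 5.09 in day 14 pregnant and 4.79 to 4.97 in day 14 non-pregnant ewes), fibroblasts (9.98 to 10.5 in day 14 pregnant and 10.1 to 10.5 in day 14 non-pregnant ewes) and smooth muscle (6.80 to 7.26 in day 14 pregnant and 6.96 to 7.33 in day 14 non-pregnant ewes). Of the 7 smooth muscle markers 3 were above and 4 below 0. CNN1, a protein of contractile filaments, was lower in pregnant ewes (-1.54 ± 0.148, adjusted p = 0.000974), while MYH11, the smooth muscle myosin, stood at 0.72 ± 0.19 (adjusted p = 0.0962) and the filament protein DES at 0.51 ± 0.213 (adjusted p = 0.281 in limma).

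The day 14 calls depended on which arrays entered. PRDX6, by its leading probe set, passed in 11 of the 12 fits that left out 1 array, HMOX2 in 10 and MT2A in 2. Without day 14 pregnant replicate 3, the only day 14 pregnant array of batch A, none of the 14 probe sets passed. The adjusted p was 0.0746 for PRDX6, 0.0956 for HMOX2 and 0.0509 for MT2A in limma, while the differences were -1.07, -1.14 and -1.67.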

How the data were processed

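The deposited table holds log2 expression values for 24128 probe sets on 12 arrays. Per the submitters' processing notes, the authors made them with RMA in Affymetrix Expression Console, which corrects background, normalizes arrays by quantiles and sums probes on the log2 scale, so changes in total RNA cannot be seen. The software version is not given in the sources used here. No probe set carries a detection call, and the number of arrays limits precision. Groups came from the source labels, since every title reads day 12 pregnant, which conflicts with the source label of 9 arrays. Replicate numbers follow accession order and pair nothing.

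After leaving out 112 control probe sets, 24016 were tested. GEO's annotation of the bovine array gave 1 symbol for 13292 of them (9155 genes), several for 86 and none for 10638. A linear model with 4 group means and a batch term was fitted in limma 3.58.1 (R 4.3.3), with 7 residual and 4.39 prior degrees of freedom, and p-values were adjusted by Benjamini-Hochberg over all probe sets. Members, lists and the rule for named genes were chosen with earlier results of these data known. Named from each list were up to 4 genes past the threshold, and other list genes were named after their values were seen. For each member past the threshold, the 3 named genes with the smallest mean absolute difference of centred values were given. The alternatives dropped the batch term, made it a random block, fitted only the groups compared, or left out probe sets with a mean under 3.59. Others were robust eBayes with a trend, array weights, median centring, each array left out in turn, within-batch values and the mean of a gene's probe sets.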

Additional observations from a re-analysis of the deposited data

Results flagged for a closer look

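With all 12 arrays, the effect of pregnancy differed between the days, by the interaction term in limma, for CNN1 and for ATP6V1E1. Both are outside the 10 antioxidant genes but named beside them. Among all probe sets 0.0874% passed this term. ATP6V1E1 was picked for its likeness to HMOX2 on these same arrays, so its interaction follows in part from that choice. It is not separate support for HMOX2. For CNN1 the interaction was -1.43 ± 0.217 (adjusted p = 0.0456), from -1.54 ± 0.148 on day 14 and -0.11 ± 0.148 on day 12. For ATP6V1E1 it was -0.93 ± 0.142 (adjusted p = 0.0456), from -0.80 ± 0.0966 on day 14 and 0.13 ± 0.0966 on day 12. Both lay just under the threshold and depended on single arrays. Of the 12 fits that left out 1 array, CNN1 passed in 2 (-1.56 to -1.26, adjusted p from 0.0195 to 0.161) and ATP6V1E1 in 3 (-1.05 to -0.86, adjusted p from 0.0329 to 0.17 in limma). CNN1 passed without day 14 non-pregnant replicate 2 or 3, and ATP6V1E1 without day 14 non-pregnant replicate 1 or 2 or day 12 pregnant replicate 3.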

How the results depend on the processing

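Counts below are of the 14 member probe sets and of all probe sets past the threshold. In the day 14 comparison of pregnant and non-pregnant ewes (4 and 348), no batch term gave 531 of all, the 6 arrays alone 0 and 24, array weights 2 and 141, and leaving out the batch A pair of day 14 non-pregnant arrays, chosen after seeing the data, 0 and 174. Leaving out 1 array gave 0 to 4 and 88 to 510. The 4 and 348 were within 1.5 times of the counts under the filter, the trend and median centring. In non-pregnant ewes, day 14 against day 12 (0 and 94), no batch term gave 5 and 415, a random block 5 and 462, array weights 1, the 6 arrays alone 1 of all, and leaving out the batch A pair 159 of all. Leaving out 1 array gave 0 to 2 and 28 to 254. For the interaction (0 and 21) no batch term and a random block gave 50 each, the batch A pair left out 59, and 1 array left out 0 to 1 and 1 to 76. The day 12 comparison (0 and 0) gave 1 of all with its 6 arrays alone and 0 to 5 with 1 array left out, and pregnant ewes between days gave 0 throughout.

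PRDX6, HMOX2 and MT2A kept their direction on day 14 under each alternative. With the 6 arrays alone they were at adjusted p = 0.0776, 0.135 and 0.0937, and without the batch A pair at 0.0735, 0.0652 and 0.166. MT2A did not pass with the trend (0.0841) or array weights (0.0852). The causes were not tested. Of 1060 recomputed member values, 32 changed sign, none of which had passed. No paired analysis was possible because the labels carry no replicate numbers.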
